A study of Mus musculus with 12 samples.

Results

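GSC-H cells, mouse glioma stem cells kept at 1% O2, received 3 mM doranidazole or, as the control, phosphate-buffered saline (PBS) for 24 h, and their transcripts were compared. The comparison rests on 6 of the 12 arrays of the series, 3 with doranidazole and 3 with PBS, and on the 19572 of 22206 probe sets that carry a single gene symbol in the platform annotation (19505 genes). No measured value entered that choice. All cells came from neural stem cells that lack Ink4a/Arf and overexpress H-Rasv12, and they were isolated in the study from late-stage tumors in mouse brain, so that 1 engineered line stands for the disease. The cells grew without serum, with epidermal growth factor, basic fibroblast growth factor, heparan sulfate and B27 supplement, in both groups. The remaining 6 arrays hold the same agents for the same time under normoxia (21% O2 in the labels), with 3 arrays each, and serve here for comparison only. The arrays of a group are labelled as biological replicates, all from 1 experiment, and the spread behind each p-value is that between these cultures.

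Doranidazole is a 2-nitroimidazole, a class of compounds whose nitro group is reduced inside cells by electron-donating enzymes. When oxygen is present the first product of this reduction is oxidized back, with formation of superoxide, and when oxygen is scarce the reduction goes further, to products that bind to proteins and DNA. Cells meet such reactive compounds with NRF2, a transcription factor released from KEAP1 that switches on genes for glutathione, thioredoxin and detoxification. They respond to misfolded proteins with heat shock factors, to low oxygen with hypoxia-inducible factor (HIF), to DNA damage with p53, and to a shortage of sterols with SREBP-2. The targets of these regulators are the groups by which the genes are described below, together with growth, stem cell and matrix genes.

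Each value is the deposited log2 signal of a probe set, the short probes that together read 1 transcript on a Clariom S Mouse array, and differences are log2 fold changes with their standard errors (SE). They were fitted with limma over all 12 arrays, two-sided, with Benjamini-Hochberg adjustment over all probe sets, and "rose" and "fell" are used for genes with an adjusted p under 0.05. Median signals lay between 4.65 and 4.88 over the 12 arrays. On the 3 doranidazole arrays in hypoxia the upper quartile of the signals was 8.60, 8.74 and 9.02, against 9.09 to 9.16 on the PBS arrays, so that their distribution was narrower. Cdkn2a, which encodes Ink4a and Arf, lay between 1.94 and 2.49 on every array. All 7 markers of neural or glioma stem cells had a mean above 7 in hypoxia with PBS. The means of all measured markers of microglia (8), endothelial cells (6), neurons (4) and oligodendrocytes (4) lay below 5 there, as did 3 of 4 for astrocytes, 4 of 5 for fibroblasts and pericytes and 1 of 1 for red blood cells. No detection calls were used here, and a signal below 5, the range of these markers, may be background. A difference from such a level is given on the log2 scale, as a difference of signals and not as a measured ratio of transcripts. In RNA from whole cultures, fewer cells of a kind and less RNA per cell cannot be told apart.

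In hypoxia, doranidazole changed 5525 of the 19572 probe sets (28.2%), of which 2409 rose (12.3%) and 3116 fell (15.9%). Under the same test 321 (1.64%) changed in normoxia, 260 higher (1.33%) and 61 lower (0.312%). A test of the difference between the responses at the 2 oxygen levels called 2717 probe sets (13.9%), 966 of them higher (4.94%) and 1751 lower (8.95%) in hypoxia. Among the 2409 probe sets that rose in hypoxia, 1282 rose more than 2-fold (6.55% of all), 367 more than 4-fold (1.88%) and 71 more than 16-fold (0.363%). Among the 3116 that fell, these counts were 2373 (12.1%), 831 (4.25%) and 88 (0.45%). The 3 doranidazole arrays lay all above the 3 PBS arrays for 20.2% of the probe sets and all below them for 19.0%. The median log2 fold change over all 19572 probe sets was 0.08. Leaving out 1 array at a time gave 35 to 525 changes in normoxia, the lowest without normoxia doranidazole replicate 1, so that this count rests on single arrays. Setting the median of each array equal moved the overall median from 0.08 to -0.05. With that scaling, rises made up 33.6% of the changes, against 43.6% as deposited and 49.8% with quantile normalization, so that the balance of rises and falls depends on how the arrays are scaled. An unpaired test of the 2 hypoxia groups, in which each probe set has its own spread, called 1527 changes. Under it 192 of the 406 calls in the gene lists below passed, 66 of the genes named here lost their call, and 3 of the 40 lists had no call, those of mitosis, of DNA replication and of complexes III and IV.

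The share of calls differed with the starting level. Of 8197 probe sets with a mean below 4 on the hypoxia PBS arrays, 9.06% rose and 0.451% fell. Of the 1898 probe sets above 12, 11.1% rose and 39.1% fell, and the shares in between are shown in the plot of calls by starting level. A probe set near the floor of the scale has no room to fall, and the PBS arrays that set the bins also enter the fold changes, so that these shares are a description. Between 6 and 12, the share that fell was 29.5% to 32.3%. The distribution of the doranidazole arrays was also narrower, and its part in this pattern was not tested.

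**Figure D1:**
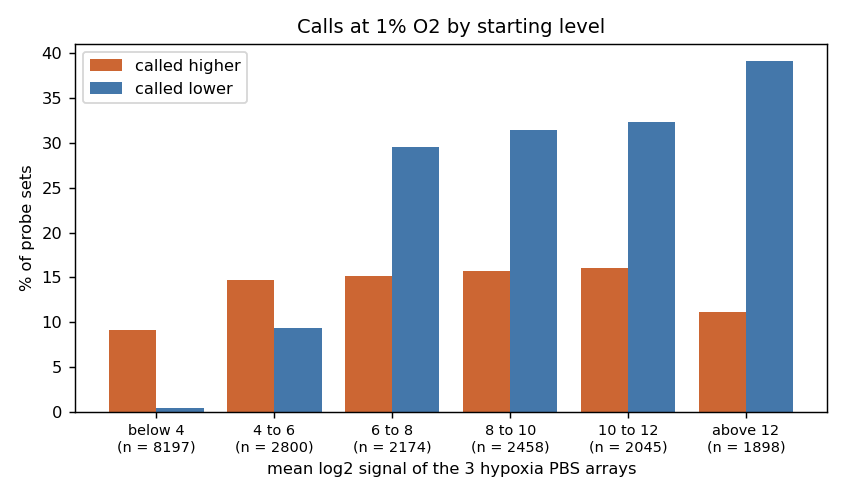
Share of probe sets with 1 gene symbol that were called higher or lower with doranidazole at 1% O2 (y axis, %), by the mean log2 signal of the 3 hypoxia PBS arrays (x axis, n in each bin). Calls lower climb from 0.451% below 4 to 39.1% above 12, while calls higher stay between 9.06% and 16.0%.

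Among the genes that rose most were enzymes of detoxification and proteins of the stress response. Gsta2, an alpha-class glutathione transferase, had log2 signals of 4.68, 4.18 and 4.06 on the PBS arrays and 14.10, 14.05 and 15.20 with doranidazole. All 3 PBS arrays lay below 5, where signal may be background, and all 3 doranidazole arrays near the upper end of the scale (log2 fold change 10.14, SE 0.47, adjusted p = 3.84e-08, limma). Alpha-class transferases are close copies of each other, so that part of this signal may come from another member. Gsta4, which conjugates the lipid peroxidation product 4-hydroxynonenal, went from 7.11, 6.10 and 5.82 to 15.68, 16.04 and 16.40. Gadd45b, a stress gene of the GADD45 family, was at 3.67, 4.96 and 4.55 with PBS and at 13.97, 13.73 and 12.78 with doranidazole. For both genes the groups lay far apart, by 8.56 and 7.82 log2 units between their nearest arrays (log2 fold change 9.70, SE 0.51, and 9.10, SE 0.34). Tlcd2, a membrane protein with a TLC domain, stayed between 4.64 and 4.86 with PBS and reached 12.81, 12.81 and 13.95, and its adjusted p of 5.30e-09 was the lowest of the 24 genes that changed most. In normoxia its log2 fold change was 0.33 (adjusted p = 0.726). Nqo1, a quinone oxidoreductase, ranged from 4.69 to 7.60 with PBS and from 13.75 to 14.75 with doranidazole, and hypoxia PBS replicate 3 lay well below the other two.

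The other genes among the 12 that rose most were Hspa1b (an inducible Hsp70), Aldh3a1 (an aldehyde dehydrogenase), Procr (the endothelial protein C receptor), Creg1 (a secreted glycoprotein of lysosomes), Gpnmb (a membrane glycoprotein found in melanosomes and lysosomes), Osgin1 (an oxidative stress-induced growth inhibitor) and Blvrb (biliverdin reductase B). Their log2 fold changes ran from 6.41 for Blvrb to 8.47 for Hspa1b. Gpnmb had the widest spread with doranidazole, 10.64, 13.06 and 14.19, against 5.63, 5.48 and 6.73 with PBS, and the 2 groups did not overlap (log2 fold change 6.68, SE 0.79).

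Among the genes that fell most were several secreted and surface proteins. Grem1, an antagonist of bone morphogenetic proteins (BMPs), had log2 signals of 13.95, 14.57 and 12.61 with PBS and 3.66, 4.58 and 4.80 with doranidazole, with all 3 doranidazole arrays below 5 (log2 fold change -9.36, SE 0.72, adjusted p = 1.34e-06, limma). Igfbp5, a binding protein of insulin-like growth factors, went from 15.04, 15.22 and 13.17 to 6.75, 5.36 and 5.75. Car9, the carbonic anhydrase IX of hypoxic tumors, went from 14.96, 15.54 and 14.41 to 6.88, 6.68 and 7.57. The lowest PBS array lay 7.81, 6.42 and 6.84 log2 units above the highest doranidazole array in these 3 genes. Cd93, a C-type lectin receptor, and Htr1b, a serotonin receptor, fell by 6.93 and 6.70 on the log2 scale. Il33, a cytokine stored in the nucleus, fell 89.9-fold, and its 3 doranidazole arrays spread from 5.65 to 7.25.

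Camk1g, a calcium/calmodulin-dependent kinase, Adamts9, a metalloproteinase, and Stc1, the hormone stanniocalcin, fell 69.3-, 61.3- and 60.4-fold. Fabp7, the brain fatty acid-binding protein of radial glia, Map2k6, a kinase of the p38 pathway, and St8sia1, the GD3 synthase, fell by 5.88, 5.73 and 5.66 on the log2 scale, and Fabp7 had a mean of 4.70 with doranidazole. In 6 of the 24 genes that rose or fell most, a group mean lay below 5 (Gsta2, Gadd45b, Tlcd2, Aldh3a1, Grem1 and Fabp7), so that their places in the order rest on levels that may be background. St8sia1 was at 13.87, 13.80 and 13.43 with PBS and at 7.59, 8.08 and 8.45 with doranidazole, and in normoxia its log2 fold change was -0.22 (adjusted p = 0.845).

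**Figure D2:**
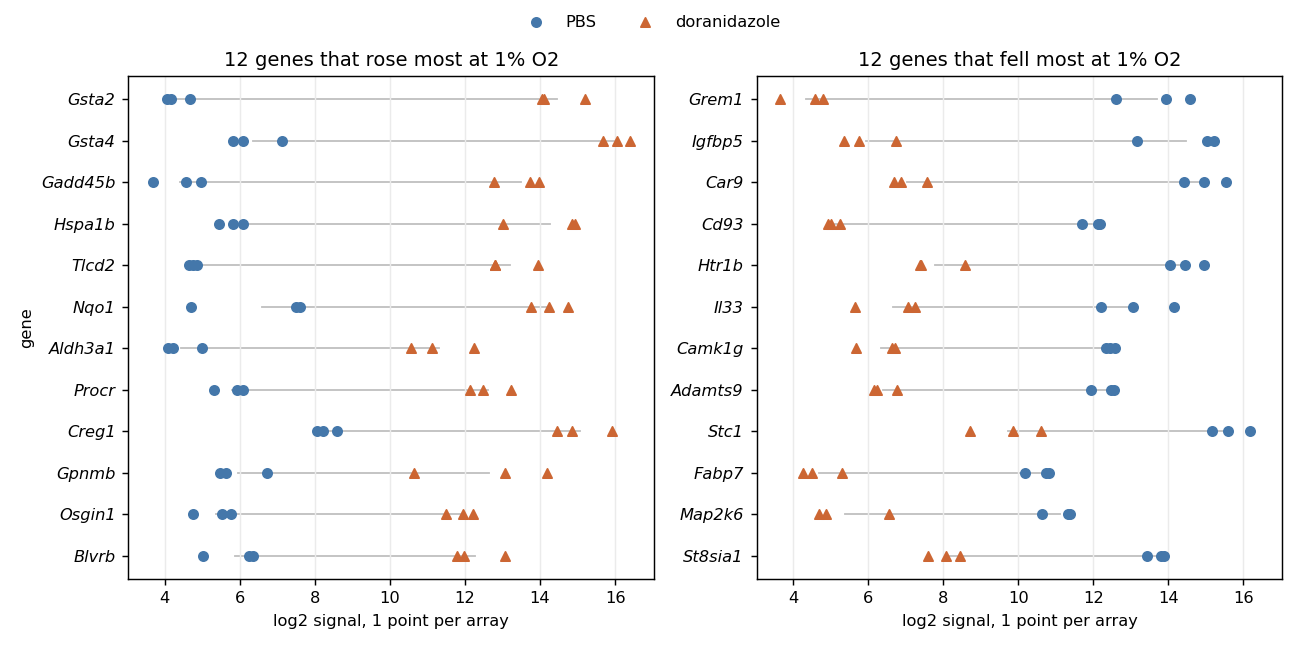
Log2 signals (x axis) on the 3 PBS arrays (circles) and the 3 doranidazole arrays (triangles) at 1% O2 for the 12 genes that rose most and the 12 that fell most (y axis), with a line between the group means. In each of the 24 genes the groups do not overlap, which was part of the rule that chose them, and Gpnmb has the widest spread with doranidazole.

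Enzymes that can reduce nitro groups or quinones moved in both directions. Of 12 measured, 3 rose and 2 fell, and the median was -0.04. Txnrd1, the cytosolic thioredoxin reductase, had log2 signals of 13.78, 13.66 and 13.41 with PBS and 17.55, 17.58 and 18.07 with doranidazole (log2 fold change 4.12, SE 0.23). The arrays spanned 0.36 log2 units with PBS and 0.53 with doranidazole, and the groups lay 3.77 apart. Nqo1 (log2 fold change 7.66) and Xdh, the xanthine dehydrogenase (4.14), rose as well. Sdha, a subunit of succinate dehydrogenase, and Cyb5r3, a cytochrome b5 reductase, fell by 1.57 and 1.04. Cyb5r2, another reductase of that family, had a log2 fold change of 0.09 (adjusted p = 0.785).

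Of 10 genes around NRF2, its regulators and partners included, 5 rose and none fell. Mafk, a small Maf protein that pairs with NRF2, was at 4.04, 4.55 and 4.31 with PBS and 9.09, 8.30 and 8.69 with doranidazole (log2 fold change 4.39, SE 0.26). Bach1, a repressor of the same sites that is removed by heme, rose from 8.73, 8.61 and 8.93 to 12.76, 12.13 and 12.17. Both genes separated without overlap, and their response was larger than in normoxia by 4.25 and 3.03 (adjusted p = 1.93e-05 and 7.79e-05). Sqstm1, whose protein p62 binds KEAP1, and Mafg also rose (3.07 and 1.58). Nfe2l2, which encodes NRF2, had a log2 fold change of -0.94 (adjusted p = 0.0899) and Keap1 one of 0.45 (adjusted p = 0.133), and on both the groups overlapped. Nfe2l1, a relative of NRF2, had the largest p of the list, at -0.21 (adjusted p = 0.73).

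Glutathione transferases and carbonyl-detoxifying enzymes rose widely. Of 24 measured, 17 rose and none fell, with a median of 1.74, against 6 that rose in normoxia with a median of 0.74. The response was larger in hypoxia for 8. Cbr3, a carbonyl reductase, went from 5.04, 4.76 and 4.79 to 11.08, 10.80 and 10.93, and the groups lay 5.76 log2 units apart. Aldh3a1, which oxidizes aldehydes, rose by 6.87 on the log2 scale from a PBS mean of 4.43, below 5. Gstt1, a theta-class transferase, had a log2 fold change of -0.01 (adjusted p = 0.978). As the classes hold close copies, values of single transferases may include signal of another member.

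In the thioredoxin, peroxide and glutathione system, 11 of 24 genes rose and 4 fell, with a median of 0.66. Gss, glutathione synthetase, was at 7.40, 6.78 and 7.74 with PBS and 11.24, 11.37 and 12.77 with doranidazole (log2 fold change 4.49, SE 0.35). Gsr, which regenerates glutathione, rose from 12.04, 11.33 and 12.12 to 15.94, 15.69 and 16.38, and the groups lay 3.57 log2 units apart. Prdx1, a peroxiredoxin, rose by 2.03, Gclm, a subunit of the enzyme that starts glutathione synthesis, by 3.62, Srxn1, which repairs oxidized peroxiredoxins, by 4.63, and Cat, catalase, by 2.25. Prdx4, Gpx8, Glrx2 and Prdx2 fell, by 0.45 to 0.87, and 2 fell with cyclic loess or quantile normalization. Glrx2 did not pass when hypoxia PBS replicate 2 or hypoxia doranidazole replicate 1 was left out, and Prdx2 did not pass when hypoxia PBS replicate 1 or 3, hypoxia doranidazole replicate 1, 2 or 3, normoxia PBS replicate 1, 2 or 3 or normoxia doranidazole replicate 1, 2 or 3 was left out. Slc7a11, the cystine transporter, had 13.65, 13.13 and 7.97 with PBS and 15.91, 15.55 and 16.28 with doranidazole. Hypoxia PBS replicate 3 lay far below the other PBS arrays, and the call was lost when hypoxia PBS replicate 3, hypoxia doranidazole replicate 1, 2 or 3, normoxia PBS replicate 1 or normoxia doranidazole replicate 1 was left out (log2 fold change 4.33, SE 1.50, adjusted p = 0.0472). Sod3, the secreted superoxide dismutase, had the largest p at -0.03.

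Antioxidant response elements, the sites that NRF2 and small Maf proteins bind, were looked for as TGACNNNGC on either strand in the 250 bases before each RefSeq start (GRCm38.p6). The letters were in 8 of the 53 windows of these 2 gene groups and in 2039 of 19143 windows of all measured genes (10.7%), with 13.4% for genes that rose, 10.5% for those that fell and 10.2% for the others. Matches in Txnrd1 and Gclm are shown with the match in capitals, since both genes rose with no overlap of the groups. The Txnrd1 stretch lies at chr10:82859088-82859148 on the plus strand and the Gclm stretch at chr3:122245397-122245457 on the plus strand, and both matches read on the other strand.
Txnrd1: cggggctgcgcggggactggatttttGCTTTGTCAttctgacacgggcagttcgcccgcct
Gclm: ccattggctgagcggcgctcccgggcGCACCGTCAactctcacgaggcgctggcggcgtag
Nqo1 and Gsta2 had no match in their windows, which says only that these letters are not in these windows.

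Among 8 enzymes of cytosolic NADPH supply, 2 rose and 3 fell. Taldo1, transaldolase, rose from 9.57, 9.29 and 9.59 to 12.26, 12.55 and 12.27 and Pgd, 6-phosphogluconate dehydrogenase, rose by 2.21 (SE 0.41), both of the pentose phosphate pathway. Idh1, the cytosolic NADP-dependent isocitrate dehydrogenase, and Pgls, of the pentose phosphate pathway, fell by 1.90 and 1.63. Rpia, which isomerizes ribose 5-phosphate, had a log2 fold change of -0.04.

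Of 18 genes for heme breakdown and iron handling, 7 rose and 2 fell, with a median of 0.47. Hmox1, heme oxygenase 1, was at 13.75, 14.02 and 10.84 with PBS and at 18.50, 18.16 and 18.39 with doranidazole, and PBS replicate 3 was again the lowest (log2 fold change 5.48, SE 0.75, adjusted p = 0.000143). Blvrb, biliverdin reductase B, rose 85.0-fold. Ftl1, the ferritin light chain, Alas1, which starts heme synthesis, Steap3, a metalloreductase, and Tfrc, the transferrin receptor, rose by 1.63, 1.76, 3.46 and 2.93. Hmox2, the constitutive heme oxygenase, and Ncoa4, which carries ferritin to lysosomes, fell by 1.00 and 0.68. Ireb2, an iron sensor, had a log2 fold change of 0.00 with an interval from -0.44 to 0.45.

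Of 17 genes linked to ferroptosis, mostly for its lipid substrates and the defence against it, 1 rose and 7 fell, with a median of -0.55. The falls were 41.2% of the list, whose median level on the hypoxia PBS arrays was 9.78. Of all probe sets with a mean between 8 and 10 there, 31.4% fell. In the unpaired test without a shared spread 5 of the 17 fell and none rose. Acsl4, which activates polyunsaturated fatty acids, was at 14.72, 15.00 and 14.48 with PBS and 11.64, 11.62 and 11.36 with doranidazole, a 9.14-fold fall (SE 0.19, adjusted p = 1.46e-07). The fatty acid desaturases Fads1 and Fads2 fell by 2.29 and 2.37, and Lpcat3, which inserts polyunsaturated acyl chains into phospholipids, by 1.75. In normoxia none of the 17 fell, and the response was lower in hypoxia for 6. Ptgs2, cyclooxygenase 2, was the only one that rose, with 7.97, 9.30 and 4.59 on the PBS arrays and 13.75, 13.34 and 13.73 with doranidazole. Its PBS arrays spanned 4.71 log2 units and the doranidazole arrays 0.42 (log2 fold change 6.32, SE 1.39, adjusted p = 0.00432). Gpx4, which reduces lipid hydroperoxides, had a log2 fold change of 0.19 (95% interval -0.29 to 0.67), and Chac1, with the largest p of the list, -0.42.

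Heat shock genes, mostly chaperones, rose in hypoxia. Of 18 measured, 13 rose and 1 fell (median 1.06), none passed in normoxia (adjusted p from 0.145, limma, with 5 at an unadjusted p under 0.05, median 0.04), and the response was higher in hypoxia for 11. Hspa1b was at 5.83, 5.45 and 6.09 with PBS and 14.92, 14.85 and 13.01 with doranidazole, and doranidazole replicate 3 was the lowest of the treated arrays. The difference, 8.47 (SE 0.45), was 7.46 larger than in normoxia (adjusted p = 1.53e-05). Hspa1a, a near-identical copy whose signal on the array cannot be fully separated, rose 47.1-fold with the same order of arrays. Cryab and Hspb1, small heat shock proteins, rose by 4.09 and 2.25, from levels below 5. Fkbp4, a cochaperone of Hsp90, fell by 1.11, and Hspb8 had a log2 fold change of 0.11.

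Heat shock factors bind inverted repeats of GAA, and GAANNTTC, a pair of such units, was in 7 of the 20 windows of the heat shock genes (35.0%) and in 5.89% of all windows. The 7 windows are not independent. Those of Hspd1 and Hspe1 hold the same bases, read on opposite strands. Hspa1a and Hspa1b, near-identical copies, hold the same letters at the same distance from the start. Fkbp4, which fell, is also among the 7. Over all measured genes, it was in 5.94% of the windows of genes that rose, 5.03% of those that fell and 6.09% of the others. The match in Hspa1b lies within chr17:34959309-34959368 on the minus strand, and the 2 matches in Hspb1 within chr5:135887776-135887855 on the plus strand.
Hspa1b: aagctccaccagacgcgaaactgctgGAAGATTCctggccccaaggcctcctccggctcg
Hspb1: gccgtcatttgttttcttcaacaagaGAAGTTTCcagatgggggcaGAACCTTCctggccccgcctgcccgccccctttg

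Subunits of the proteasome rose slightly, 14 of 31 with none falling, and the median of 0.46 stood against -0.23 in normoxia. The response was higher in hypoxia for 11. Psmb3, Psma2, Psmd11 and Psmd4, parts of the core and the cap, rose by 1.35, 1.21, 1.43 and 1.01, and Psmc5 had a log2 fold change of -0.05. Without hypoxia PBS replicate 1 or 2 the count was 9 or 8.

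Of 18 genes of the endoplasmic reticulum, 1 rose and 8 fell (median -0.51). The falls made up 44.4% of the list, near the 39.1% of all probe sets with a mean above 12 on the hypoxia PBS arrays. The median level of the list on those arrays was 13.02. In the unpaired test without a shared spread 4 fell. In normoxia 1 fell and the median was -0.39, and the response was lower in hypoxia for 2 and higher for 1. Pdia6, a disulfide isomerase, and Hsp90b1, the Hsp90 of that compartment, fell by 1.81 and 1.38. Xbp1, a transcription factor of the unfolded protein response, was at 14.30, 14.63 and 13.41 with PBS and at 11.93, 11.52 and 11.82 with doranidazole. The groups did not overlap, and the fall of 2.35 stood against -0.41 in normoxia (adjusted p = 0.659, difference of the responses -1.94, adjusted p = 0.00639). Dnajb9, a cochaperone of BiP, was the only one that rose, from 12.77, 12.87 and 10.79 to 15.40, 15.60 and 14.99. Hspa5, which encodes BiP, had a log2 fold change of -0.22 (95% interval -0.65 to 0.22), and Dnajb11, with the largest p of the list, 0.06.

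Of 23 genes of ATF4 and the integrated stress response, 4 rose and 2 fell, which is 26.1% of the list, near the 28.2% over all probe sets. Ppp1r15a, the phosphatase subunit that restores translation, was at 3.58, 3.92 and 2.74 with PBS and 7.22, 7.71 and 6.55 with doranidazole. Atf3, a transcription factor of stressed cells, rose from 8.77, 9.06 and 8.37 to 12.73, 12.51 and 11.28. Sesn2, a stress-inducible inhibitor of mTORC1 signalling, rose by 2.50, and Vldlr, a lipoprotein receptor, fell by 3.75, but not without hypoxia PBS replicate 1 (adjusted p = 0.0655) or 2 (0.0719), or without hypoxia doranidazole replicate 3 (0.0544). Slc7a11, the cystine transporter, belongs to this list too and rose by 4.33 (adjusted p = 0.0472, limma). That call was lost when any of several single arrays was left out, as given above. Atf4, Asns, Trib3 and Chac1 did not pass: Atf4 itself had a log2 fold change of 0.23 (SE 0.56), Asns, asparagine synthetase, -0.71 (SE 1.02), Trib3 -1.43 (SE 1.48) and Chac1 -0.42 (SE 1.73). In each of these 4 genes replicate 3 was the lowest of the PBS arrays. Ddit3, which encodes CHOP, had 10.90, 11.45 and 7.96 with PBS and 13.20, 12.70 and 12.59 with doranidazole, and although the groups did not overlap the difference did not pass (adjusted p = 0.155).

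Aminoacyl-tRNA synthetases held 5 genes of 18 that fell and none that rose (median -0.44), so that 27.8% of the list changed, near the 28.2% over all probe sets. Vars, Iars, Farsb and Qars, for valine, isoleucine, phenylalanine and glutamine, fell by 0.65 to 1.74, and 2 of the list fell with quantile or cyclic loess normalization. The count was also 2 when hypoxia PBS replicate 1 or 2 or hypoxia doranidazole replicate 1 or 2 was left out, and 3 without hypoxia doranidazole replicate 3. Iars did not pass when hypoxia PBS replicate 1 or hypoxia doranidazole replicate 1 was left out, Farsb not when hypoxia PBS replicate 1 or 2 or hypoxia doranidazole replicate 2 or 3 was left out and Qars not when hypoxia PBS replicate 2 or 3 or hypoxia doranidazole replicate 1 or 2 was left out. Cars, for cysteine, had a log2 fold change of -0.20.

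The immediate early genes, which growth factors and stress induce rapidly in many cells, were widely higher with doranidazole. Of 26 measured, 17 rose and 1 fell (median 1.93), against 2 that rose in normoxia (median 0.11), and the response was higher in hypoxia for 13. Junb, a subunit of AP-1, stayed between 6.03 and 6.09 with PBS and between 10.99 and 11.41 with doranidazole (log2 fold change 5.12, SE 0.21, adjusted p = 2.17e-08). The arrays spanned 0.05 log2 units with PBS and 0.42 with doranidazole, against a gap of 4.90. Arc, Egr2 and Nr4a2 rose by 3.91, 3.14 and 2.89. Egr1 and Zfp36, which destabilizes mRNAs with AU-rich elements, rose 20.0- and 32.2-fold. Jun, the partner of FOS, fell from 13.67, 13.43 and 13.62 to 12.18, 12.29 and 11.54, without overlap. Fosl2 had a log2 fold change of -0.15 (adjusted p = 0.837) and Myc one of -0.53 (adjusted p = 0.218).

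In the GADD45 family, Gadd45b and Gadd45g rose (9.10 and 2.78) and Gadd45a, the member best known as a p53 target, had a log2 fold change of 0.53 (adjusted p = 0.644).

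Genes that report signalling from RAS to ERK mostly fell. Of 15 measured, 2 rose and 8 fell (median -1.40), none passed in normoxia (lowest adjusted p = 0.0876, with 2 at an unadjusted p under 0.05), and the response was lower in hypoxia for 8. Spry2, a feedback inhibitor, was at 11.99, 12.41 and 12.20 with PBS and 8.97, 9.21 and 9.25 with doranidazole. Dusp6, the phosphatase of ERK, fell from 14.99, 15.10 and 15.30 to 12.18, 12.33 and 11.79, and Etv1, a transcription factor, from 14.11, 14.04 and 13.76 to 10.91, 10.82 and 11.35. The groups lay 2.74, 2.65 and 2.41 log2 units apart in these 3 genes, with SE of 0.18, 0.23 and 0.23. Spred1, Etv5, Etv4, Spry4 and Spry1 also fell, by 1.40 to 4.31. Epha2, an ephrin receptor, rose by 2.43, and Phlda1 had a log2 fold change of -0.31.

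Targets of p53 rose at both oxygen levels. Of 24 measured, 15 rose and none fell in hypoxia (median 1.08), 9 rose in normoxia (median 0.56), and a difference between the responses passed for 1 of the 24, Plk3. Mdm2, the ubiquitin ligase of p53, was at 14.02, 14.22 and 14.46 with PBS and 15.71, 16.03 and 17.05 with doranidazole. Its log2 fold change was 2.03 (SE 0.39) in hypoxia and 2.13 in normoxia, and the difference of -0.10 had a 95% interval from -1.29 to 1.09. Trp53inp1, a nuclear cofactor of p53, rose by 3.63 and by 3.64, a difference of -0.01 (95% interval -1.17 to 1.16). Eda2r, a receptor of the tumor necrosis factor family, rose 43.9-fold, Phlda3, an inhibitor of AKT, 9.28-fold, and Plk3, a kinase, 9.58-fold. Cdkn1a, the CDK inhibitor p21, was higher in hypoxia already with PBS (log2 fold change against normoxia 1.92, adjusted p = 0.0381) and rose by 1.57 with doranidazole, though not when hypoxia PBS replicate 1 or 3 was left out. Bbc3, which encodes PUMA, had a log2 fold change of 0.00 (95% interval -0.35 to 0.34). Without hypoxia PBS replicate 1, 9 of the 24 rose.

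Mitotic genes fell, 22 of 26 with none rising (median -2.56), but none passed in the unpaired test without a shared spread. Kif11, a spindle kinesin, had 11.32, 10.15 and 12.71 with PBS and 7.26, 7.79 and 7.07 with doranidazole. Cdk1, the kinase that starts mitosis, had 10.48, 8.61 and 11.90 with PBS and 7.55, 6.25 and 5.70 with doranidazole. The PBS arrays spanned 2.56 and 3.29 log2 units, with replicate 2 lowest and replicate 3 highest, and still lay above every doranidazole array (SE 0.46 and 0.65). Kif18a, Ttk and Aurkb, a kinesin and 2 kinases of the spindle, fell by 2.76 to 4.00. In normoxia 3 of the 26 fell (median -1.14), and the response was lower in hypoxia for 2 and higher for 1. Cenpu, a centromere protein, had a log2 fold change of 0.07. The letters TTTGAA of the cell cycle homology region, searched on either strand, were in 6 of 23 windows of these genes (26.1%) and in 13.8% of all windows. Over all measured genes, they were in 11.8% of the windows of genes that fell, 11.3% of those that rose and 14.7% of the others. Cdk1 is shown for its 2 matches, within chr10:69352913-69353009 on the minus strand.
Cdk1: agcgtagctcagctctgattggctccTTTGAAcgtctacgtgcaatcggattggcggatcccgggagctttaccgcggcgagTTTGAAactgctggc

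For DNA replication and S phase, 12 of 28 genes fell and 1 rose (median -0.98). In normoxia 3 fell and the median was -1.38, and the response was higher in hypoxia for 1 gene and lower for none. Mybl2, a transcription factor of the cell cycle, went from 9.91, 9.45 and 11.66 to 7.02, 6.00 and 6.77, and Ccna2, cyclin A2, fell 15.4-fold. Cdt1, which loads the replicative helicase, rose from 9.62, 9.22 and 10.92 to 12.52, 12.17 and 11.89, without overlap (log2 fold change 2.28, SE 0.35). Its response was 2.82 higher than in normoxia (adjusted p = 0.00249). Mcm2, a subunit of that helicase, had 10.78, 10.08 and 12.73 with PBS and 11.68, 10.94 and 10.98 with doranidazole, a difference of 0.00. With only the 2 groups in the fit 7 of the list fell, and none passed in the unpaired test without a shared spread.

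Of 18 genes for DNA repair and checkpoints, 8 fell and none rose, among them Rad51b, Brca2, Blm (homologous recombination) and Xrcc5, a Ku subunit of end joining, by 1.40 to 2.65. The falls made up 44.4% of the list, against 29.5% of all probe sets with a mean between 6 and 8 on the hypoxia PBS arrays. The list medians on those arrays were 7.04, 6.60 and 8.02, with replicate 3 the highest. In the unpaired test without a shared spread 2 fell, and Brca2 and Blm lost their call. Lig4, the ligase of end joining, had a log2 fold change of -0.01. Of 11 CDK inhibitors and G1 cyclins, 1 rose and 6 fell. Cdkn1b, the inhibitor p27, fell from 11.84, 12.43 and 11.42 to 7.89, 8.47 and 8.34, and the cyclins Ccnd3 and Ccnd2 fell by 2.91 and 2.53, as did the inhibitor Cdkn2c by 1.81. For Cdkn1b, Ccnd3 and Ccnd2 the response was lower in hypoxia, by 2.52 to 3.41 on the log2 scale (adjusted p up to 0.00111). Among 13 BCL2 family genes, 3 rose and 2 fell, 38.5% of the list against 28.2% over all probe sets. Bid and Bcl2l11, BH3-only proteins that favour apoptosis, rose by 2.30 and 1.78, and Bcl2, which opposes it, fell from 11.84, 11.43 and 11.89 to 7.98, 7.76 and 9.08. In the unpaired test without a shared spread 1 of the 13 fell and none rose, so that Bid and Bcl2l11 lost their call. Bik rose by 0.61 and Bnip2 fell by 0.57, but Bik did not pass when hypoxia PBS replicate 3 or hypoxia doranidazole replicate 1 was left out and Bnip2 did not pass when hypoxia PBS replicate 1 or 3, hypoxia doranidazole replicate 1 or 2 or normoxia doranidazole replicate 1 or 3 was left out, while Hrk had a log2 fold change of 0.02.

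The HIF targets rose with low oxygen and came down with doranidazole. Of 18 targets outside glycolysis, 15 were higher in hypoxia than in normoxia with PBS, where 393 of all probe sets changed (2.01%), 286 of them higher (1.46%) and 107 lower (0.547%). Without hypoxia PBS replicate 3 this count was 1318, and without replicate 1 it was 131. With doranidazole in hypoxia 11 of the 18 fell and none rose (median -1.85). The 2 comparisons share the 3 hypoxia PBS arrays, so that an array with high values moves both. Car9 had a mean of 6.74 in normoxia with PBS, 14.97 in hypoxia with PBS and 7.05 in hypoxia with doranidazole. Its level with doranidazole was thus within the spread of the normoxia PBS arrays (7.13, 8.08 and 5.01). Bnip3, a mitophagy receptor, had means of 8.50, 14.44 and 11.04, and stayed above every normoxia PBS array. P4ha2, Plod2 and Bhlhe40, of collagen hydroxylation and of transcriptional repression, fell by 2.31 to 3.78. Vegfa, the vascular growth factor, had 15.36, 15.42 and 14.01 with PBS and 14.47, 14.33 and 13.82 with doranidazole, a difference of -0.72 that did not pass (SE 0.70). Car12, another carbonic anhydrase, had a log2 fold change of 0.01.

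Of 20 genes for glycolysis and the transport of glucose and lactate, 15 fell and 1 rose (median -1.57), 14 having been higher in hypoxia than in normoxia with PBS. Slc2a3, the glucose transporter GLUT3, was at 16.24, 17.13 and 15.84 with PBS and 12.18, 12.40 and 12.79 with doranidazole. Slc16a3, the lactate exporter MCT4, fell from 14.05, 13.34 and 12.95 to 8.99, 8.23 and 8.39. Aldoc, the brain aldolase, fell from 14.46, 15.28 and 14.42 to 9.84, 8.93 and 9.82, below its mean of 13.77 in normoxia with PBS. Pgk1, Pfkl and Ldha, enzymes along the pathway, fell by 1.76, 2.38 and 1.32, and Pdk1, which holds pyruvate back from mitochondria, by 3.33. Pfkfb4, which makes fructose 2,6-bisphosphate, rose by 0.83, but did not pass when hypoxia PBS replicate 1 or 2 or hypoxia doranidazole replicate 3 was left out. Pkm, pyruvate kinase, had a log2 fold change of -0.16 (95% interval -0.51 to 0.19) and Hk1, hexokinase 1, 0.02.

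Of 9 HIF subunits and oxygen sensors, 6 fell and 1 rose. Egln1, the main HIF prolyl hydroxylase and itself a HIF target, fell from 15.38, 15.69 and 15.08 to 12.32, 12.57 and 12.32, near its normoxia PBS mean of 11.98. Vhl, the ubiquitin ligase component for HIF, Egln3, another hydroxylase, and Hif1a fell by 1.74, 2.30 and 0.83. Egln2 rose by 0.84, and Epas1, which encodes HIF-2α, had a log2 fold change of 0.01.

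The core letters of the hypoxia response element, ACGTG on either strand, were in 9 of 19 windows of the HIF targets outside glycolysis (47.4%), in 14 of 30 of the glycolysis genes (46.7%) and in 18.3% of all windows. A gene can have several windows, and overlapping windows of Aldoa hold the same site and count separately. Stretches of 4 genes that fell from high levels are shown, with overlapping matches joined. They lie at chr4:43506982-43507025 (plus strand, Car9), chr11:120949014-120949066 (plus strand, Slc16a3), chr7:138909581-138909640 (minus strand, Bnip3) and chr7:46845633-46845782 (plus strand, Ldha).
Car9: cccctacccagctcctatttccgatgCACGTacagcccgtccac
Slc16a3: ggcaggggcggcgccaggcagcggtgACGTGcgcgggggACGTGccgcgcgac
Bnip3: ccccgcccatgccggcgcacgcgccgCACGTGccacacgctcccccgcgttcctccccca
Ldha: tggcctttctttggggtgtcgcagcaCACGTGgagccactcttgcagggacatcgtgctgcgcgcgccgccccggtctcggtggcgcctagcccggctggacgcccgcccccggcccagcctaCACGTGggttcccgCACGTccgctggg
Over all measured genes, the letters were in 21.4% of the windows of genes that fell, 21.0% of those that rose and 17.1% of the others.

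**Figure D3:**
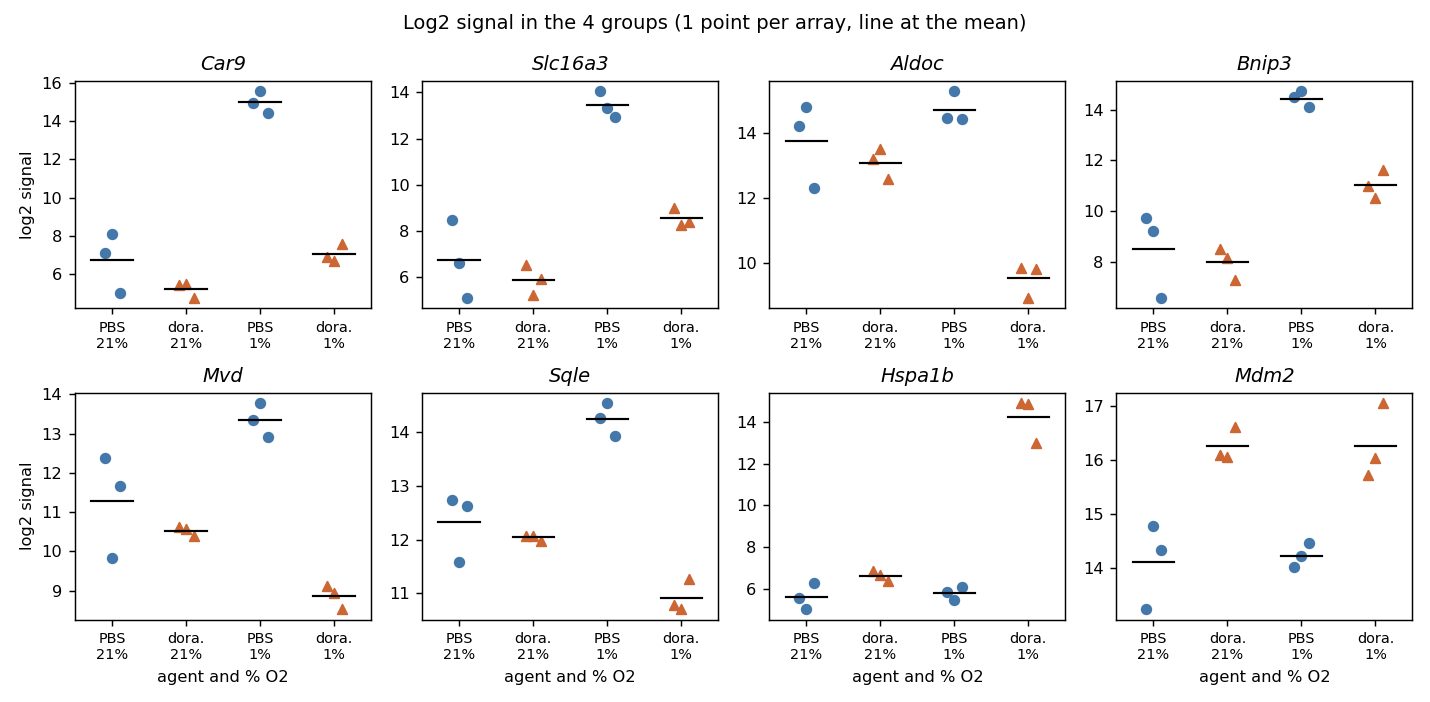
Log2 signal (y axis) of 8 genes on the 12 arrays, by agent and % O2 (x axis; dora., doranidazole), with 1 point per array and a line at the group mean. Car9, Slc16a3, Bnip3, Mvd and Sqle are higher on every PBS array at 1% than at 21% O2 and are lower with doranidazole at 1%, Hspa1b is high with doranidazole at 1% alone, and Mdm2 is high with doranidazole at both oxygen levels.

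All 16 measured genes of cholesterol synthesis fell (median -3.13), from the first steps to the last. Hmgcs1, the synthase that precedes the rate-limiting step, was at 17.12, 17.34 and 17.30 with PBS and 14.36, 14.10 and 14.07 with doranidazole. Mvk, mevalonate kinase, fell from 8.68, 8.76 and 8.46 to 4.27, 4.43 and 3.78, and Lss, which closes the sterol rings, from 15.21, 15.26 and 15.09 to 11.60, 11.53 and 11.68. The groups lay 2.76, 4.03 and 3.41 log2 units apart. Nsdhl and Sqle, of the later steps, fell by 3.76 and 3.32, and Sc5d, with the largest p, by 1.18 (adjusted p = 0.0253). Sc5d did not pass with quantile normalization or when hypoxia PBS replicate 1 or 3 or hypoxia doranidazole replicate 1 or 2 was left out. In normoxia 1 of the 16 fell (Lss, by 1.31, median of the list -0.55), and the response was lower in hypoxia for 13. With PBS, 5 of the 16 were higher in hypoxia than in normoxia.

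Regulators of sterols moved in both directions, 3 of 11 higher and 3 lower. Mylip, the ubiquitin ligase that removes the LDL receptor, rose from 6.12, 5.48 and 5.88 to 11.92, 10.93 and 11.71. Npc2, which carries cholesterol in lysosomes, rose by 1.24. Srebf2, which encodes SREBP-2, fell by 1.50, Insig1, which holds SREBP back, by 1.92, and Stard4, a sterol carrier, by 3.50. Abcg1, a sterol exporter, had a log2 fold change of -0.09. Among 14 genes of fatty acid synthesis and desaturation 11 fell and none rose (median -1.57). Scd1, stearoyl-CoA desaturase, was at 17.35, 17.46 and 16.95 with PBS and at 14.99, 14.78 and 14.42 with doranidazole, and in normoxia its log2 fold change was 0.03. Tecr, of chain elongation, fell by 1.62, and Elovl1, another elongase, had a log2 fold change of -0.05.

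A sterol regulatory element, TCACNCCAC on either strand, was in 1 of the 16 cholesterol synthesis windows, that of Hmgcs1, and in 1.03% of all windows (1.02% for genes that fell, 0.842% for those that rose and 1.07% for the others). It lies within chr13:119690188-119690248 on the plus strand.
Hmgcs1: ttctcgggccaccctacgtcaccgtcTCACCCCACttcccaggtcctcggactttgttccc

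Of 22 genes of the tricarboxylic acid cycle and pyruvate entry, 10 fell and none rose (median -0.54), and 6 fell without hypoxia doranidazole replicate 2. These 10 are 45.5% of the list, whose median level on the hypoxia PBS arrays was 11.48. Of all probe sets with a mean between 10 and 12 there, 32.3% fell. In the unpaired test without a shared spread 3 of the 22 fell. Idh2, the mitochondrial NADP-dependent isocitrate dehydrogenase, went from 13.37, 13.26 and 13.67 to 11.63, 11.53 and 11.01. Suclg2, Mdh1 and Idh3g fell by 1.48 to 1.66, and Sucla2 had a log2 fold change of -0.02. Of the 4 subunits of succinate dehydrogenase, Sdha fell, with 10.13, 10.17 and 10.16 on the PBS arrays and 8.38, 7.82 and 9.57 with doranidazole, and so did Sdhb, by 0.51 (adjusted p = 0.0339). Sdhb did not pass with quantile or cyclic loess normalization or when hypoxia PBS replicate 1 or 3 or hypoxia doranidazole replicate 2 was left out. Sdhc and Sdhd had log2 fold changes of -0.21 (95% interval -0.68 to 0.27) and 0.31 (-0.30 to 0.92).

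Of 35 nuclear-encoded subunits of complex I, 15 fell and none rose, led by Ndufv3, Ndufs1, Ndufs3 and Ndufs8 (by 0.91 to 2.00), and Ndufa5 had a log2 fold change of 0.01. The falls made up 42.9% of the list, whose median level on the hypoxia PBS arrays was 10.53. Of all probe sets with a mean between 10 and 12 there, 32.3% fell. In the unpaired test without a shared spread 3 of the 35 fell. With quantile or cyclic loess normalization 8 fell, and the list median was -0.28 and -0.32 in place of -0.53. Of 20 subunits of complexes III and IV, 4 fell and 2 rose (30% of the list, near the 28.2% over all probe sets, and none in the unpaired test without a shared spread), with Cyc1, cytochrome c1, falling by 1.31, Cox6a1 by 0.77 and Uqcrc2 by 0.79 and Cox4i1 rising by 0.86, and Cox7b had 0.01. Cox4i1 did not pass when hypoxia PBS replicate 2 or hypoxia doranidazole replicate 1 or 2 was left out. Uqcrc2 did not pass under either of these normalizations, nor when hypoxia PBS replicate 1 or 2 or hypoxia doranidazole replicate 1 or 2 was left out. Of 15 genes for iron-sulfur cluster assembly, Fdx1, a ferredoxin, rose by 1.23 and Bola3, Isca2 and Isca1 fell by 0.63 to 0.96, so that 26.7% of the list changed, near the 28.2% over all probe sets. With quantile or cyclic loess normalization 1 of the 3 falls passed, and the list median turned from -0.10 to 0.05 and 0.02. Isca1 did not pass when hypoxia PBS replicate 1, 2 or 3 or hypoxia doranidazole replicate 2 or 3 was left out and Isca2 not when hypoxia PBS replicate 2 or hypoxia doranidazole replicate 2 was left out. Lyrm4, of the same machinery, had 0.00.

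Lysosomal genes rose, 17 of 24 with none falling (median 1.74, against 0.66 and no calls in normoxia), and the response was higher in hypoxia for 9. In normoxia the lowest adjusted p of the 24 was 0.0501 (limma), and 15 had an unadjusted p under 0.05. Gla, which encodes alpha-galactosidase A, was at 9.34, 8.79 and 9.26 with PBS and 13.96, 13.08 and 14.50 with doranidazole. Atp6v1c1 and Atp6v1h, subunits of the proton pump that acidifies lysosomes, rose by 2.73 and 2.79, and Lamp1, an abundant membrane protein, from 14.18, 13.90 and 13.96 to 15.87, 16.29 and 16.12. Lamp1 spanned 0.28 log2 units with PBS and 0.42 with doranidazole. The regulators Tfeb, Tfe3 and Mitf had log2 fold changes of 0.16, 0.72 and 0.91 and did not pass (adjusted p = 0.594, 0.0551 and 0.179), and Atp6v0a1 had 0.05.

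The CLEAR element to which these regulators bind, here GTCACGTG on either strand, was in 4 of 27 windows of the lysosomal genes (14.8%) and in 2.44% of all windows. It was in 4.68% of the windows of all genes that rose in hypoxia, 2.27% of those that fell and 2.09% of the others. Gla and Mcoln1, a calcium channel of lysosomes, are shown since they hold it and differ in response: Gla rose 26.3-fold and Mcoln1 had a log2 fold change of 0.10 (adjusted p = 0.836). The stretches lie at chrX:134601168-134601227 (minus strand) and chr8:3500420-3500507 (plus strand).
Gla: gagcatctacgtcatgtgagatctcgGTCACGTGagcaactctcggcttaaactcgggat
Mcoln1: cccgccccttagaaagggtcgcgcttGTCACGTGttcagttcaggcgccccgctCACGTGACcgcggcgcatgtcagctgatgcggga

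Of 19 autophagy genes, 12 rose and 2 fell (median 0.90). Gabarapl1 and Map1lc3b, of the ATG8 family that coats autophagosomes, were at 9.46, 9.53 and 8.47 and 11.32, 11.54 and 11.21 with PBS and at 13.56, 13.21 and 14.07 and 13.95, 14.20 and 14.85 with doranidazole. Ulk1, the kinase that starts autophagy, and Wipi2, which binds the growing membrane, rose by 2.62 and 2.32, while Wipi1 and Becn1 fell by 1.16 and 0.54, Becn1 not when hypoxia PBS replicate 1 or 2 or hypoxia doranidazole replicate 2 was left out. Calcoco1, a receptor, had a log2 fold change of 0.43.

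Genes of neural and glioma stem cells mostly fell, 12 of 22 with 1 rising (median -0.62), and 1 of the 22 changed in normoxia, Fabp7. The response was lower in hypoxia for 10. Sox2, a transcription factor of neural stem cells, was at 14.20, 14.67 and 14.22 with PBS and 10.03, 11.43 and 11.14 with doranidazole. Sox9, of glial fate, and Msi2, an RNA-binding protein, fell by 2.85 and 2.04, and Olig2 went from 7.42, 7.20 and 6.53 to 5.53, 4.61 and 4.78. Dll1, a ligand of Notch, rose by 1.86. Nes, which encodes nestin, was at 13.49, 13.18 and 13.79 with PBS and 13.78, 13.54 and 13.95 with doranidazole, a difference of 0.27 (95% interval -0.69 to 1.24), and Egfr had a log2 fold change of 0.10.

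Of 23 genes of BMP signalling, ID proteins and IGF binding, 11 fell and 2 rose. Beside Grem1 and Igfbp5, Igfbp3 fell by 3.70 and Id3, an inhibitor of differentiation and a BMP target, from 11.41, 10.99 and 12.58 to 6.88, 8.01 and 7.87. Bmp2, a ligand, fell by 4.68 and Bmp4 had a log2 fold change of 0.01. The response was lower in hypoxia for 11 of the 23, and none passed in normoxia (lowest adjusted p = 0.136, 6 with an unadjusted p under 0.05).

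Matrix genes and proteases fell as well, 13 of 24 with 2 rising (median -1.09). Col5a1, a fibrillar collagen, Tnc, tenascin C of glioma matrix, and Lamb1, a laminin, fell by 3.29, 3.93 and 2.29. Tnc had 17.78, 17.86 and 17.60 with PBS and 13.46, 13.62 and 14.38 with doranidazole, and in normoxia a log2 fold change of 0.59 (adjusted p = 0.521). Plau, the urokinase plasminogen activator, fell from 15.69, 15.62 and 16.36 to 11.58, 10.89 and 10.79, while its receptor Plaur rose from 12.00, 10.98 and 12.75 to 14.91, 15.14 and 15.31. Mmp2, a gelatinase, had a log2 fold change of -0.03.

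Of 21 cytokines and immune ligands, 3 fell and 2 rose, 23.8% of the list against 28.2% over all probe sets. Beside Il33, Cd276, a member of the B7 family, fell by 2.19, while Csf1, a growth factor of macrophages, rose from 12.76, 12.66 and 13.25 to 14.61, 14.77 and 15.07 and Cd274, which encodes PD-L1, by 1.15 from levels near 4. Csf1 rose by 1.87 in normoxia too. Ccl2, a chemokine, had a log2 fold change of 0.08.

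Of 9 drug efflux transporters, 5 rose and 1 fell (median 0.65). In normoxia the median was 1.05, and none passed (lowest adjusted p = 0.0509, limma, with 5 at an unadjusted p under 0.05). Abcb1b, of multidrug resistance, was at 4.58, 4.98 and 5.47 with PBS and 7.97, 7.96 and 7.48 with doranidazole, and Abcc5 and Abcc4 rose by 1.77 and 3.75. In the unpaired test without a shared spread 1 of the 9 rose, and Abcc5 and Abcc4 lost their call. Abcg2, which marks side-population cells, fell from 10.50, 10.85 and 10.79 to 6.89, 7.36 and 8.33, and Abcc3 had 0.01. Among 8 genes of metallothioneins and the zinc response, Mtf1, their transcription factor, and Mt3 rose by 1.61 and 2.65, while Mt2, Mt4 and Slc39a10 had log2 fold changes of -0.79, 0.85 and 0.13, so that 25% of the list changed, near the 28.2% over all probe sets. Of 18 clock genes, 3 rose and 4 fell, 38.9% of the list against 28.2% over all probe sets. Nr1d2 and Nr1d1, the REV-ERB repressors, rose by 2.37 and 1.65, and Bhlhe40 and Npas2 fell by 3.78 and 2.54, with Rora at -0.02. In the unpaired test without a shared spread 1 of the 18 rose and 2 fell, and Nr1d1 and Npas2 lost their call.

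**Figure D4:**
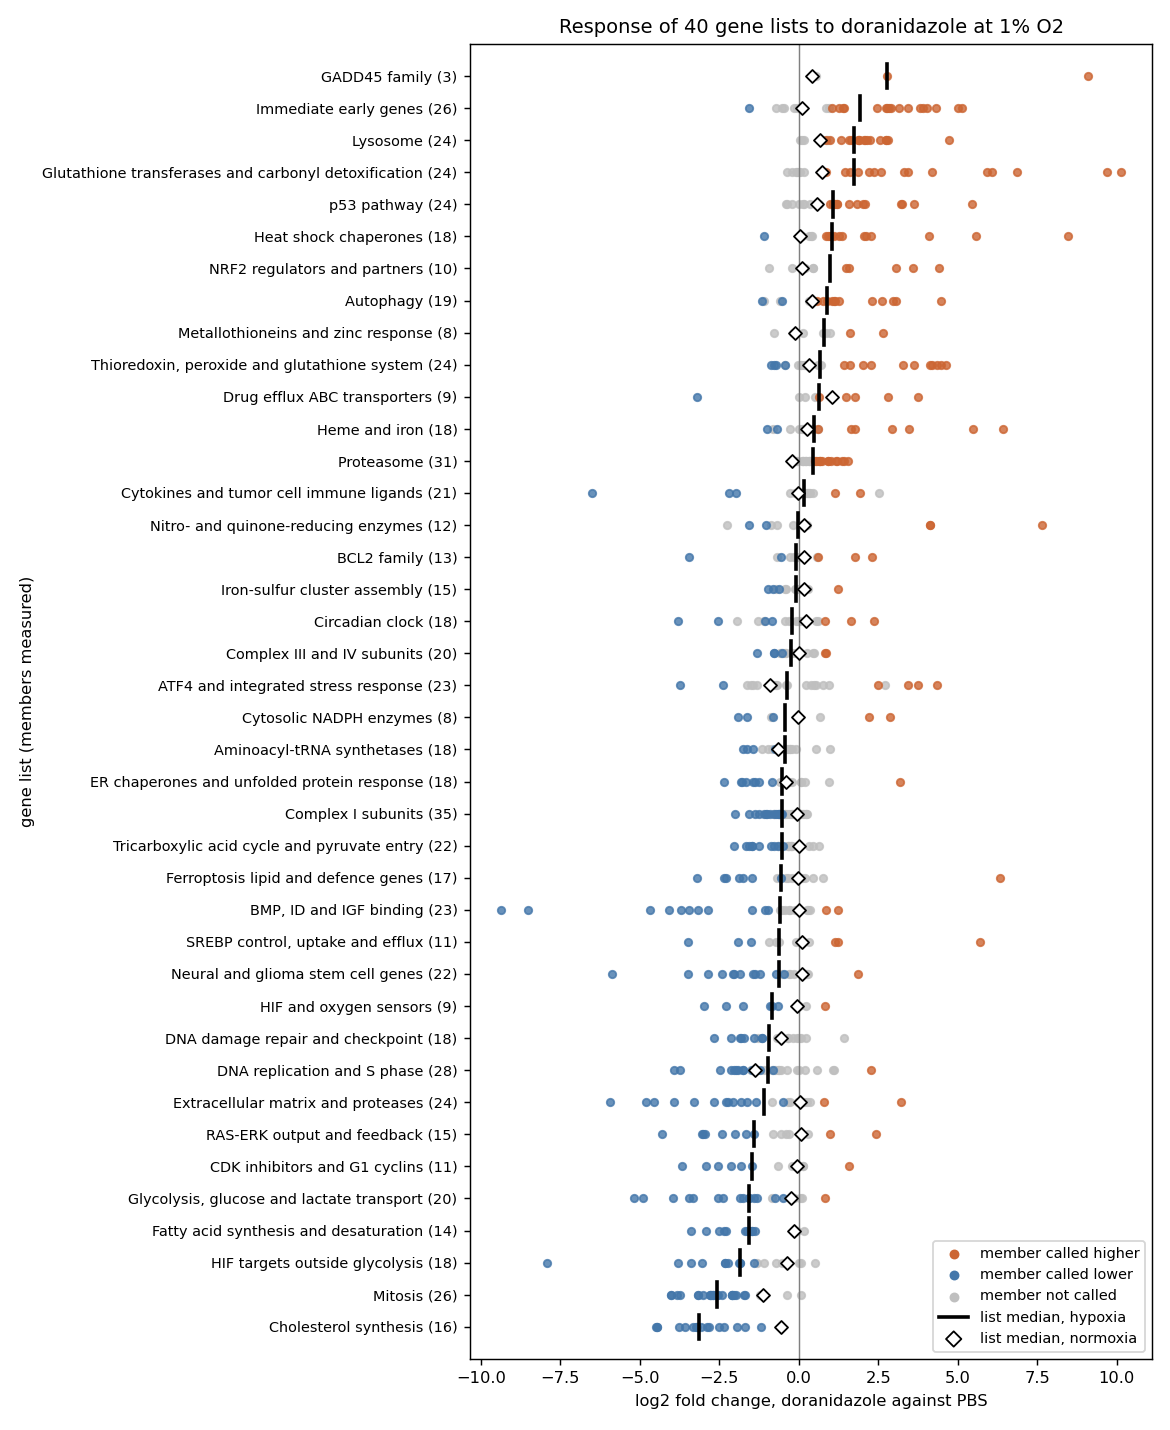
Log2 fold changes of doranidazole against PBS at 1% O2 (x axis) for the measured members of 40 gene lists (y axis, number measured), with the list median in hypoxia as a bar and in normoxia as a diamond. Lists run from a median of 2.78 for the GADD45 family to -3.13 for cholesterol synthesis, and the normoxia medians all lie between -1.38 and 1.05.

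The median signal of replicate 3 of the hypoxia PBS group lay more than 1 log2 unit beyond both other arrays of its group in 6 of the 40 lists. It was the highest for the mitotic and replication genes and the lowest for the genes of ATF4, of the endoplasmic reticulum, of the matrix and of BMP signalling. The median log2 signal of the mitotic genes was 10.56, 9.30 and 11.95 on the PBS arrays and 8.35, 8.04 and 7.31 with doranidazole, so that the groups did not overlap. The replication genes had medians of 8.65, 7.77 and 10.31 with PBS and 8.64, 7.62 and 7.65 with doranidazole, and here they overlapped. For the ATF4 genes the order was turned, with 13.07, 12.45 and 9.92 on the PBS arrays and 12.16, 11.92 and 11.28 with doranidazole. The list medians of the log2 fold change were -1.79, -0.48 and -1.15 without this array, in place of -2.56, -0.98 and -0.36. The ATF4 median was 0.09 without hypoxia PBS replicate 1 and 0.20 without replicate 2, so that its sign depends on which PBS array is left out. For the genes of the endoplasmic reticulum the PBS medians were 13.48, 13.51 and 12.07 against 12.84 to 13.03 with doranidazole, and here the groups overlapped. For the matrix genes they were 10.55, 10.74 and 9.00 against 6.76 to 8.05, and for the genes of BMP signalling 9.47, 10.17 and 8.26 against 5.36 to 6.02. Without this array the median log2 fold changes of these 3 lists were -0.82, -1.53 and -0.72, in place of -0.51, -1.09 and -0.61. For the ATF4 genes, a similar range stood in normoxia, where the medians were 11.09, 13.21 and 9.21 with PBS. Slc7a11, Ptgs2, Nqo1, Ptgr1 and Abcc4, all lowest on hypoxia PBS replicate 3, carry the same spread in their PBS group.

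**Figure D5:**
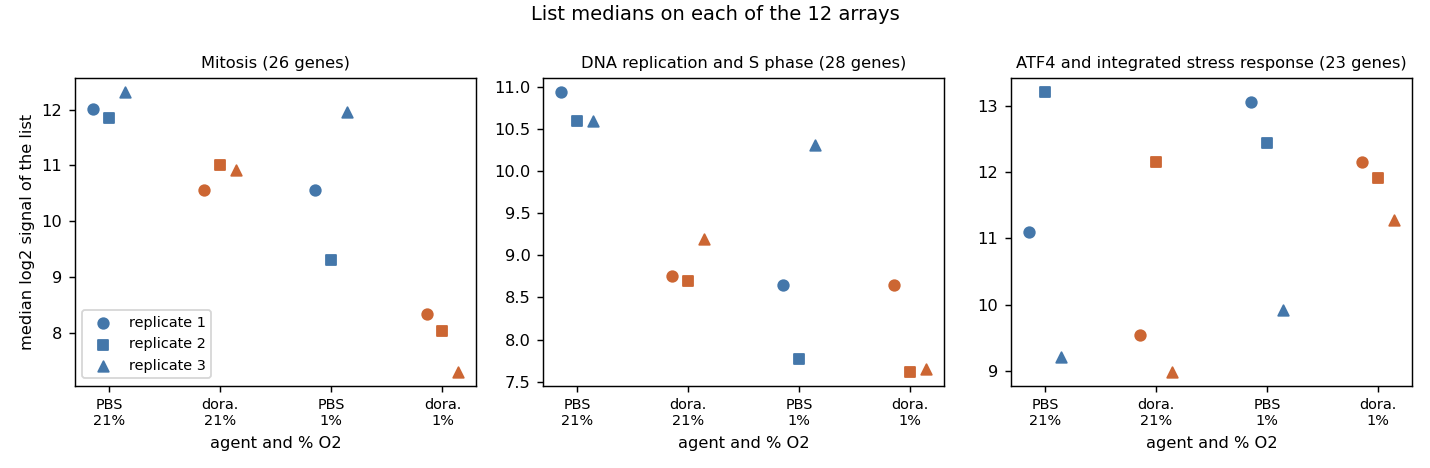
Median log2 signal (y axis) of the mitotic, replication and ATF4 genes on each of the 12 arrays, by agent and % O2 (x axis; dora., doranidazole), with the replicate given by the shape of the marker. At 1% O2 with PBS, replicate 3 is the highest for the mitotic (11.95) and replication genes (10.31) and the lowest for the ATF4 genes (9.92).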

How the data were processed

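RNA of 12 cultures was hybridised to Clariom S Mouse arrays, 3 for each of 4 groups. The authors analyzed the scans with the Transcriptome Analysis Console and deposited log2 signals per probe set. The summary method and the scaling between arrays are not given in the sources used here, and a compressed or rescaled array would change every fold. The 2 deposited tables hold the same values, and 1 was used.

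The deposited log2 values were used without further scaling. Differences were fitted with limma 3.58.1 (R 4.3.3) over the 12 arrays and 4 groups with a shared spread, with Benjamini-Hochberg adjustment over all 22206 probe sets and a threshold of 0.05. The script was tested on simulated data with 200 changed probe sets. Gene symbols came from the platform annotation, and a gene with several probe sets was given by the one with the highest mean. Arrays give no depth, and precision depends on their number.

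The members and the gene lists were chosen with earlier results of these data known, so that list counts are descriptions. Named were the 12 genes that rose and the 12 that fell most without overlap of the groups, in each list the 4 genes of smallest p and the gene of largest p, the genes the study names for these arrays, and regulators. The remaining genes in the text were chosen after their values were seen. Alternatives were 3 other scalings, a filter below the 30th percentile, another prior, array weights, a replicate block, fits of 2 groups with and without a shared spread, 1 probe set per gene, the study's thresholds (a fold above 2 or below 0.5 with an unadjusted p), and leaving out each array. Those for normoxia and for oxygen were chosen after the data were seen. Promoter windows were RefSeq's, 250 bases before each start (19143 windows of 15691 genes, GRCm38.p6).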

Additional observations from a re-analysis of the deposited data

Results flagged for a closer look

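By limma's test of the difference between the responses at the 2 oxygen levels, 2717 probe sets with a gene symbol differed. Listed here are only genes named because they rose or fell most without overlap, and genes the study names for these arrays. Among them, those with a higher response in hypoxia were, with the log2 difference of the responses in parentheses, Gadd45b (8.42), Tlcd2 (8.10), Gsta2 (7.86), Hspa1b (7.46), Gsta4 (5.38), Procr (5.33), Osgin1 (5.18), Blvrb (4.35), Gpnmb (4.20), Creg1 (3.83), Aldh3a1 (3.74), Nqo1 (3.28) and Txnrd1 (2.99). Those with a lower response in hypoxia were Igfbp5 (-9.56), Grem1 (-8.60), Car9 (-6.41), Adamts9 (-5.91), Htr1b (-5.85), Camk1g (-5.56), St8sia1 (-5.45), Il33 (-5.39), Map2k6 (-5.17), Cd93 (-4.60), Fabp7 (-4.17), Stc1 (-4.14) and Sdha (-1.54). The hypoxia terms of these differences are the fold changes by which many of these genes were chosen. Other genes named in the report, such as Mafk, Bach1, Cdt1, Mylip, Cbr3 and Xbp1, also passed the test and are not listed here.

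Probe sets without a gene symbol stood outside the comparisons of the report, and 629 of the 2634 changed with doranidazole in hypoxia, 389 higher and 240 lower.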

How the results depend on the processing

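The count of 5525 changes in hypoxia ran from 4176 to 5742 under other scalings, filters, priors, weights, the replicate block and a fit of the 2 groups, and from 4203 to 6277 with 1 array left out. It was 1527 (646 higher, 881 lower) with an unpaired test without a shared spread. The study's thresholds, applied to limma's unadjusted p, gave 3789 (1327 higher, 2462 lower). Deviations of same-numbered hypoxia arrays had correlations of -0.02, -0.02 and -0.05 over all probe sets. Such a value can miss a link in a part of the genes. The ATF4 genes had their lowest list median on replicate 3 in each of the 4 groups. These medians were 9.21 and 8.99 in normoxia with PBS and doranidazole, and 9.92 and 11.28 in hypoxia. Whether the numbers pair the arrays was not tested further. The replicate block gave 5742 changes, 2455 higher and 3287 lower. In normoxia, array weights gave 1272 changes (797 higher, 475 lower), cyclic loess 96 lower, and leaving out 1 array 35 to 525 (34 to 406 higher, 1 to 189 lower). Hypoxia against normoxia with PBS gave 2111 (949 higher, 1162 lower) with array weights, 182 lower with the replicate block, and 131 to 1318 (118 to 591 higher, 10 to 727 lower) with 1 array left out. The difference of the responses gave 653 to 1455 higher with 1 array left out. The median of the ATF4 genes turned to 0.09 without hypoxia PBS replicate 1 and 0.20 without replicate 2, and was -1.15 without replicate 3. The causes were not tested.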
